A study of Drosophila melanogaster with 27 samples.

Results

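The roX63 discs are eye-antennal imaginal discs, the larval precursors of the adult eye and antenna, from wandering Drosophila melanogaster larvae mutant for rough (ro). The roX63 allele is known as a loss-of-function allele. The series' design text lists it with Su(roDom)519 as a genotype that forms extra R8 photoreceptor cells. The 3 arrays titled with roX63 were taken out of 27 arrays in all. The labels do not give the zygosity of the roX63 larvae. Each array carried RNA of a few mutant discs, amplified in 2 rounds with T7 polymerase, in one dye, and a common reference in the other. That reference was eye-antennal discs of the isogenized w1118 stock, whose eyes differentiate normally apart from pigment, amplified in 1 round.

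The other groups used were whole discs of 7 mutant genotypes on 20 arrays. They were Su(roDom)519 (3 arrays), homozygous ato1 (3), homozygous hh1 (4), homozygous roDom (3), heterozygous roDom (2), homozygous E(roDom)2033 (3) and heterozygous E(roDom)2033 (2). A further 4 arrays held posterior fragments of w1118 eye discs; they entered the fit, where they add to the estimates of spread and dye effect, and no comparison with them is made. The design text describes ato1, hh1, roDom and E(roDom)2033 as genotypes in which the morphogenetic furrow stops. For 2 of the 3 homozygous E(roDom)2033 arrays another label field says heterozygous, and the title was followed. The design text states at least 2 independent replicates per condition. The labels do not say which arrays share larvae, so the p-values measure the spread between arrays.

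The eye disc differentiates behind the morphogenetic furrow, which sweeps across the disc from posterior to anterior. The proneural factor Atonal is first made in a band at the furrow and is then limited, through Notch signalling and its E(spl) target genes, to single evenly spaced R8 founder cells. Each R8 cell then recruits the remaining photoreceptors through EGFR signalling. Rough is a homeodomain protein made at the furrow between the founder cells and in R2 and R5. It is known to repress atonal there, so discs without rough form more than the normal number of R8 cells, whereas the dominant allele roDom has ectopic rough activity that stops the furrow.

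All values below are log2 ratios of the roX63 discs over the w1118 reference, or differences between such ratios, where 1 unit is a 2-fold difference. A gene was called changed when its adjusted p was under 0.05 in 1 limma fit of all 27 arrays with a dye term (Benjamini-Hochberg over 16492 probes). Errors are standard errors of that fit (n = 3 roX63 arrays). They and the p-values rest on a spread pooled over all 9 groups, not on the roX63 arrays alone. In the test against the reference, the reference counts as 1 control sample. That test therefore leaves out the spread of normal discs, and the extra amplification round of the mutant RNA cannot be told apart from the genotype. Differences between mutant groups are free of both. In either kind of comparison, differences of strain background cannot be told apart from the mutation.

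The 3 roX63 arrays detected 71.0%, 94.1% and 74.5% of probes in at least 1 channel (replicates 1, 2 and 3). Replicates 1 and 2 had the roX63 RNA in Cy5 and replicate 3 had it in Cy3. Across probes, replicates 1 and 2 correlated at r = 0.74, replicates 1 and 3 at 0.49, and replicates 2 and 3 at 0.47. Probes of the eye disc markers ey, so, eya and gl were detected on 3 of 3 roX63 arrays, and elav on 2. The antennal marker Dll was detected on 3 of 3, and ss and ct on 1 each. Fewer cells of a type and less RNA per cell cannot be told apart in whole discs.

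The mutated gene did not differ detectably from normal discs. The ro probe read 0.17, -0.26 and -0.21 on the 3 roX63 arrays, on both sides of 0, with a fitted log2 ratio of -0.09 ± 0.14 (adjusted p = 0.81). The sources used here do not place this probe relative to the roX63 lesion, so it neither checks nor contradicts the label. The same probe read 0.90 and 1.19 in heterozygous roDom discs, above all 3 roX63 arrays, and 0.04, -0.07 and 0.44 in homozygous roDom discs.

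atonal (ato), the proneural gene that rough represses, read 0.50, 0.31 and -0.05. Its mean of 0.25 ± 0.11 did not pass the test against the reference (adjusted p = 0.14). In the 20 arrays of the other mutants ato lay between -0.87 and 0.08 with a median of -0.20. Only replicate 3 of roX63 fell inside that range. The difference from the mean of the other 7 mutant groups, 0.48 ± 0.11, passed (adjusted p = 0.026). It did not pass without replicate 1 (0.36, adjusted p = 0.19), without replicate 2 (0.46, adjusted p = 0.09) or with scan day as a fixed block (0.57, adjusted p = 0.052). hedgehog (hh), the secreted signal that drives the furrow, fell by 0.87 ± 0.19 on the log2 scale against the reference (adjusted p = 0.0042), with -1.19, -0.37 and -1.11 on the 3 arrays. This call was lost without replicate 1 (-0.74, adjusted p = 0.052) and without replicate 3 (-0.71, adjusted p = 0.11). hh averaged between -1.11 and -0.60 in every other mutant group as well, and the roX63 difference from their mean was -0.03.

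Against the reference, 1795 of 11510 genes (15.6%) were called, 786 higher (6.83%) and 1009 lower (8.77%). Over all 16492 probes, unnamed ones included, 13.5% were called, 6.12% higher and 7.41% lower. The balance of directions was not stable: in place of 1010 higher and 1222 lower probes, 381 were higher and 314 lower without roX63 replicate 3, and 173 higher and 168 lower with scan day as a fixed block. The median over all genes was 0.0025. A naming rule and 25 gene lists, described with the processing, covered 101 of the called genes. Of these, 71, 57 and 39 kept their calls without replicates 1, 2 and 3. With scan day as a random and as a fixed block, 73 and 19 kept them. The calls below are therefore given with the arrays on which they rest. The fixed block sets each value against the reference at the mean of all scan days, most of which hold no roX63 array. It therefore shifts the values as well as their errors. The median of the salivary glue list went from -2.64 to -5.28, and that of the Notch receptor list from -0.47 to 0.03. Among genes with a name, those furthest above the reference included 4 structural muscle genes, 2 heat shock genes, a fat body protein gene and an antibacterial protein gene. Those furthest below it included salivary glue genes, ecdysone-induced genes and serpins.

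**Figure D1:**
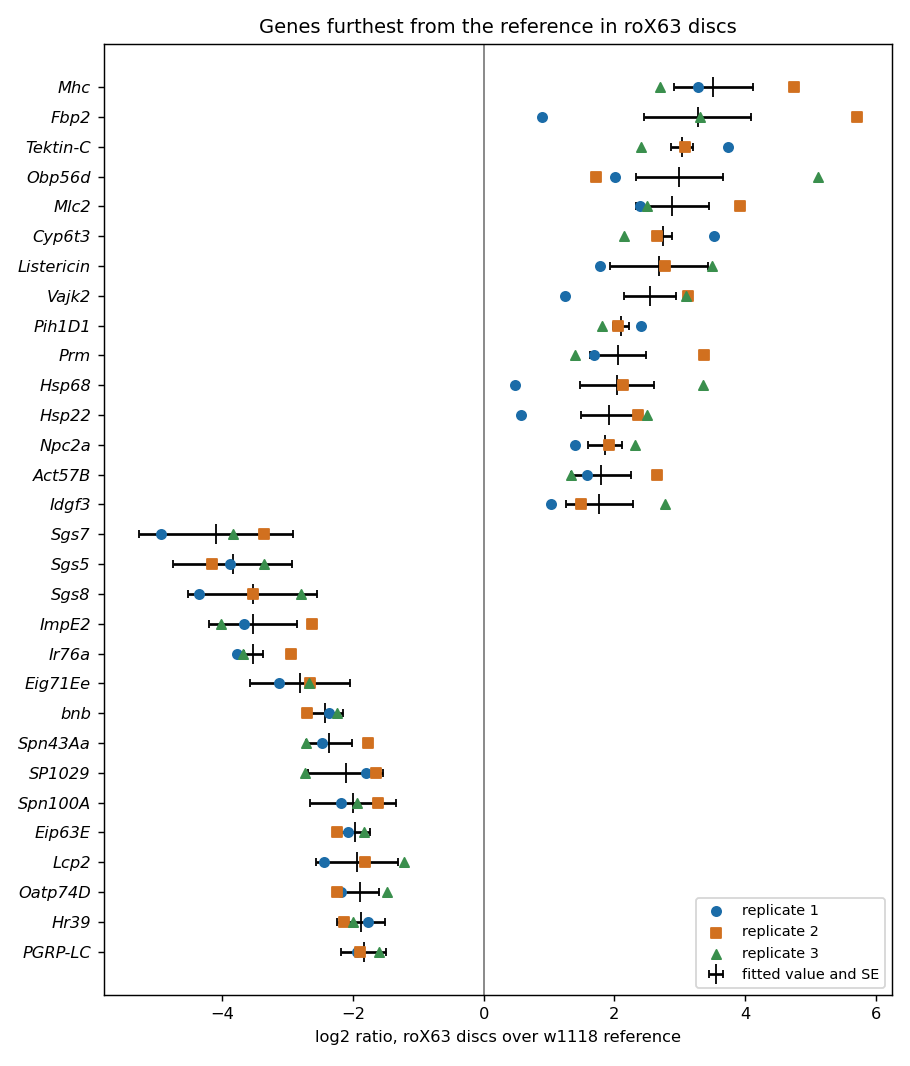
The 15 named genes with the highest and the 15 with the lowest called log2 ratio of roX63 discs over the w1118 reference. Points are the 3 roX63 arrays, and black ticks with bars are the fitted value and its SE. Every plotted gene has the same sign on all 3 arrays, and replicate 2 is the highest array for Mhc, Mlc2, Prm and Act57B.

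The smallest adjusted p-values among these named genes belonged to 3 that rose and 1 that fell. Cyp6t3, a cytochrome P450, read 3.52, 2.65 and 2.14 on the roX63 arrays (2.75 ± 0.14, adjusted p = 5.2e-11). Its reference signal was above background on only 1 of the 3 arrays. The other mutant arrays lay between -0.13 and 0.38, so its pooled error does not describe the wider spread of the roX63 arrays. Tektin-C, a tektin of cilia and sperm tails, read 3.74, 3.08 and 2.40 (3.03 ± 0.17, adjusted p = 1.9e-10), with its reference detected on 2 arrays. Pih1D1, which encodes a PIH1-domain protein, read 2.40, 2.06 and 1.81 (2.10 ± 0.12, adjusted p = 1.9e-10), although another probe of this gene read -0.09. All 3 genes were high on every roX63 array, with replicate 1 the highest and replicate 3 the lowest. Pih1D1 was not high in roX63 discs alone. The 20 arrays of the other mutants had a median of 1.27 for it and ranged from -0.31 to 1.87.

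Ir76a, an ionotropic receptor of the olfactory system, read -3.77, -2.95 and -3.68 (-3.52 ± 0.15, adjusted p = 7.4e-12). Its other probes gave -3.18 to -2.37, so every probe of the gene was low. Npc2a, a secreted sterol-binding protein, read 1.40, 1.92 and 2.31 (1.86 ± 0.26, adjusted p = 8.5e-05). bangles and beads (bnb), known from glia, read -2.37, -2.70 and -2.24 (-2.43 ± 0.28, adjusted p = 1.4e-05). The calls of these 6 genes held without each roX63 replicate in turn and with scan day as a random or a fixed block.

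The remaining named genes above the reference varied more between arrays. Mhc, the muscle myosin heavy chain, read 3.28, 4.75 and 2.70 (3.51 ± 0.61, adjusted p = 0.00068), with its reference detected on 1 array. Mlc2, a myosin light chain, read 2.40, 3.92 and 2.50 (2.89 ± 0.56, adjusted p = 0.0017). Replicate 2 was the highest for both myosins, and also for paramyosin (Prm, 1.69, 3.38 and 1.40) and the muscle actin Act57B (1.58, 2.65 and 1.33). Prm and Act57B rose by 2.06 ± 0.43 and 1.79 ± 0.46. Their calls were lost without replicate 2 (1.54, adjusted p = 0.053 for Prm; 1.45, adjusted p = 0.11 for Act57B), and that of Act57B also without replicate 3 (1.96, adjusted p = 0.072). Another Prm probe read 0.02.

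Fbp2, a fat body protein, ranged from 0.89 on replicate 1 to 5.70 on replicate 2 (3.27 ± 0.81, adjusted p = 0.0096). Obp56d, an odorant-binding protein, was highest on replicate 3 at 5.12, against 2.0 and 1.72 on the others (2.99 ± 0.67, adjusted p = 0.0048), with its reference detected on 1 array only. Listericin, an antibacterial protein, rose by 2.68 ± 0.75, and Idgf3, a chitinase-like imaginal disc growth factor, by 1.77 ± 0.51. The calls of all 4 genes were lost without replicate 3 (adjusted p = 0.099, 0.22, 0.25 and 0.40 in the order given). Those of Fbp2, Listericin and Idgf3 were also lost without replicate 2 (adjusted p = 0.16, 0.083 and 0.065). Vajk2 read 1.25, 3.13 and 3.10 (2.54 ± 0.40, adjusted p = 0.00027) and kept its call without each array.

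Below the reference, the salivary glue genes were furthest down. Sgs7 read -4.94, -3.36 and -3.84 (-4.09 ± 1.17, adjusted p = 0.024), Sgs5 averaged -3.84 ± 0.91 and Sgs8 -3.53 ± 0.98. The calls of Sgs7 and Sgs8 were each lost without any 1 of the 3 roX63 arrays (adjusted p between 0.065 and 0.14), and the call of Sgs5 was kept. ImpE2, an ecdysone-inducible gene of imaginal discs, read -3.67, -2.63 and -4.01 (-3.52 ± 0.67, adjusted p = 0.0016). Oatp74D, the ecdysone importer, fell by 1.89 ± 0.29 (adjusted p = 0.00025), and the nuclear receptor gene Hr39 by 1.88 ± 0.36 (adjusted p = 0.0017). The Hr39 call was lost without replicate 3 (-1.64, adjusted p = 0.051). Eip63E, a cyclin-dependent kinase named for its ecdysone induction, read -2.08, -2.25 and -1.84 (-1.97 ± 0.23, adjusted p = 1.8e-05). The other ecdysone-induced gene among the lowest, Eig71Ee, fell by 2.81 ± 0.77 (adjusted p = 0.017), and its call was lost without any 1 roX63 array (adjusted p between 0.061 and 0.12).

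The serpin gene Spn43Aa read -2.48, -1.77 and -2.71 (-2.36 ± 0.35, adjusted p = 0.00017). A second serpin, Spn100A, averaged -2.0 ± 0.65 (adjusted p = 0.046), with its call lost without any 1 array (adjusted p between 0.12 and 0.20). PGRP-LC, the peptidoglycan receptor of the Imd pathway, fell by 1.83 ± 0.34 (adjusted p = 0.0013), but its roX63 signal was above background on 1 array only. SP1029 (-2.11 ± 0.57) and the larval cuticle gene Lcp2 (-1.93 ± 0.63) completed the 15 lowest genes. The call of SP1029 was lost without replicate 1 (adjusted p = 0.061) or replicate 3 (0.20), and that of Lcp2 without any 1 array (0.074 to 0.27).

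In 8 lists of eye patterning genes (proneural, Notch targets, Notch receptor, EGFR, R1 to R7, Hedgehog, Dpp and Wingless, retinal determination), 4 of 126 members rose and 27 fell, beside 6.83% of all genes higher and 8.77% lower. Without replicates 1, 2 and 3 the count of 27 lower became 18, 17 and 1, and that of 4 higher became 3, 0 and 3. Replicate 3 is the only array with the roX63 RNA in Cy3. Over all probes, the lower calls also went from 1222 to 314 without it. With scan day as a fixed block 3 members were higher and 0 lower. Of 13 measured genes of the proneural, furrow and R8 list, 0 rose and 4 fell against the reference, with a list median of -0.02. scute (sc) and achaete (ac), proneural genes of the bristle sense organs, read -1.01, -0.60 and -1.73, and -0.46, -0.42 and -1.20. Replicate 3 was the lowest for both. sc fell by 1.14 ± 0.23 (adjusted p = 0.0026) and ac by 0.74 ± 0.14 (adjusted p = 0.0014), and both calls were lost without replicate 3 (adjusted p = 0.11 and 0.074). emc, an inhibitor of proneural proteins (-0.88 ± 0.27, adjusted p = 0.034), and nvy, a co-repressor gene (-1.04 ± 0.28, adjusted p = 0.017), lost their calls without replicates 2 or 3 (adjusted p between 0.082 and 0.31), and emc also without replicate 1 (0.093).

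senseless, scabrous and bride of sevenless, genes of R8, showed no detectable difference from normal discs in these whole-disc RNAs. run, a gene of R7 and R8, was called higher and is given below with the photoreceptor fate genes. senseless (sens), the R8 selector, read 0.20, 0.12 and -0.25 (0.03 ± 0.10, adjusted p = 0.94). scabrous (sca), the secreted spacing factor of the R8 clusters, averaged -0.02 ± 0.10 (adjusted p = 0.96). bride of sevenless (boss), the R8 ligand for R7, averaged -0.02 ± 0.07 (adjusted p = 0.93), and its signal was above background on 1 roX63 array and 2 reference channels. Differences of sens, sca and boss from the mean of the other mutants were 0.05 ± 0.11, 0.13 ± 0.10 and 0.04 ± 0.07, and none passed the test.

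Among 15 measured E(spl) and Bearded complex genes, the Notch targets that hold back neighbouring cells, 1 rose and 2 fell. Beside these counts, 6.83% of all genes were higher and 8.77% lower. E(spl)mgamma-HLH, a basic helix-loop-helix repressor, read 0.70, 1.77 and 0.63 (1.01 ± 0.25, adjusted p = 0.0087), with its call lost without replicate 2 (0.67, adjusted p = 0.15). E(spl)m3-HLH fell by 0.77 ± 0.19 (adjusted p = 0.0087), and Tom, a Bearded family gene, by 0.63 ± 0.18 (adjusted p = 0.02). Both calls were lost without replicate 1 (adjusted p = 0.065 and 0.16), and also without replicate 2 for E(spl)m3-HLH (0.054) and without replicate 3 for Tom (0.21).

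Of 15 measured genes of the Notch receptor, its ligands and modifiers, 0 rose and 7 fell, with a list median of -0.47, beside 0.0025 over all genes and 8.77% of all genes lower. The largest of these changes were in the ligand gene Ser (-1.37 ± 0.36, adjusted p = 0.014), the cytoplasmic regulator dx (-1.09 ± 0.24, adjusted p = 0.0048), the ubiquitin ligase gene neur (-0.97 ± 0.24, adjusted p = 0.0099) and the co-repressor gene gro (-0.82 ± 0.23, adjusted p = 0.024). Ser read -1.09, -1.81 and -1.40 on the 3 arrays. The receptor gene N itself averaged -0.09 ± 0.09 and did not pass. Without replicate 3 the count of 7 became 0, and without replicate 1 or 2 it became 3; with scan day as a random block it was 3 and as a fixed block 0.

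In the EGFR pathway list 0 of 23 genes rose and 7 fell (8.77% of all genes fell), with a list median of -0.26. roughoid (ru) and rhomboid (rho), the proteases that release the EGFR ligand, averaged -1.40 ± 0.25 (adjusted p = 0.001) and -0.99 ± 0.24 (adjusted p = 0.0077). The ligand gene spi read -1.03, -0.70 and -1.84 (-1.21 ± 0.25, adjusted p = 0.0029). The nuclear repressor gene aop averaged -0.93 ± 0.28 (adjusted p = 0.032), whereas the receptor gene Egfr, at -0.71 ± 0.25, did not pass (adjusted p = 0.061). The count of 7 lower genes became 6 without replicate 1, 4 without replicate 2 and 0 without replicate 3; it was 4 with scan day as a random block and 0 as a fixed block. In both the EGFR list and the Notch receptor list, 0 genes passed the test of the difference between roX63 and the mean of the other mutants, and the list medians of that difference were 0.07 and 0.00.

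The photoreceptor fate list had 2 genes higher and 2 lower of 15, and the pan-neuronal list 0 higher and 2 lower of 17. Over all genes 6.83% were higher and 8.77% lower, so these counts are too few to give either list a direction. Of 15 genes of R1 to R7 fate, run (R7 and R8, 0.84 ± 0.19, adjusted p = 0.0059) and oc (0.90 ± 0.24, adjusted p = 0.017) rose, and the repressor ttk (-1.37 ± 0.30, adjusted p = 0.004) and the R7 receptor tyrosine kinase sev (-0.78 ± 0.20, adjusted p = 0.013) fell. sev read -0.38, -0.18 and -1.72, so replicate 3 stood apart. The calls of oc, ttk and sev were lost without replicate 3 (adjusted p = 0.12, 0.076 and 0.62), and those of run and oc without replicate 2 (0.071 and 0.11). Among 17 pan-neuronal genes 2 fell, the photoreceptor membrane protein gene chp (-1.58 ± 0.27, adjusted p = 0.00068) and Ank2 (-0.87 ± 0.25, adjusted p = 0.023), the call of Ank2 being lost without replicate 2 (adjusted p = 0.10) or 3 (0.34). The neuronal RNA-binding protein gene elav read -0.21, 1.30 and -0.07 (0.35 ± 0.23, adjusted p = 0.42).

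Of 20 axon guidance and adhesion genes, the tetraspanin lbm rose (1.25, 1.27 and 0.57; 1.00 ± 0.24, adjusted p = 0.0075), and the receptors Lar (-1.64 ± 0.28), fra (-1.02 ± 0.21) and gogo (-0.36 ± 0.08, its roX63 signal above background on 1 array only) fell. The call of lbm was lost without replicate 1 (adjusted p = 0.059) or 2 (0.060), and that of fra without replicate 3 (0.084). In the Hedgehog list hh was the only called gene of 11, and the Hedgehog receptor and target ptc read 0.10, -0.01 and -0.18. Of 18 Dpp and Wingless genes, Dad, an inhibitor of Dpp signalling, rose (0.52 ± 0.14, adjusted p = 0.014), and the receptors put and sax and the beta-catenin gene arm fell (-0.82 to -0.67). The Dad call was lost without replicate 1 (adjusted p = 0.091) or 2 (0.10), and those of put, sax and arm without replicate 3 (0.18 to 0.40) and of sax also without replicate 2 (0.059). The signal dpp itself averaged -0.09 ± 0.13. Beside the counts of these lists, 6.83% of all genes were higher and 8.77% lower.

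Among 16 retinal determination genes only D fell (-0.99 ± 0.29, adjusted p = 0.029), and this call was lost without any 1 array (adjusted p between 0.094 and 0.20). Among 16 antennal and head capsule genes the Hox genes Dfd (-1.50 ± 0.24, adjusted p = 0.00031) and lab (-1.35 ± 0.26, adjusted p = 0.0016) fell, with both calls kept without each array. In the cell cycle lists, 4 of 21 DNA replication genes rose, namely Orc2 (0.89 ± 0.17, adjusted p = 0.0013), Mcm2 (0.71), RPA2 (0.48) and dpa (0.40). Of these only the call of Orc2 was kept without each array; without replicates 1, 2 and 3 the count was 1, 2 and 3, and with scan day as a random and a fixed block 1 and 0, beside 6.83% of all genes higher. Of 21 mitosis genes, Cdk1 (-0.54 ± 0.17) and the securin gene pim (-0.51 ± 0.11) fell, the call of Cdk1 being lost without replicate 3 (adjusted p = 0.79). In the actin list, the profilin gene chic fell by 1.73 ± 0.24 (adjusted p = 9.5e-05), with -1.47, -1.27 and -2.23 on the arrays. Arpc2 (-0.70 ± 0.14) and Arpc3A (0.59 ± 0.18) of the Arp2/3 complex went in opposite directions. The call of Arpc2 was lost without replicate 3 (adjusted p = 0.12), and that of Arpc3A without replicate 1 (0.17) or 2 (0.24). Beside the counts of lower genes in these lists, 8.77% of all genes were lower.

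Of 16 cell death and JNK genes, the caspase genes Dronc (-1.15 ± 0.20, adjusted p = 0.00071) and Dcp-1 (-0.65 ± 0.12, adjusted p = 0.0012) and the phosphatase gene puc (-0.67 ± 0.15, adjusted p = 0.0051) fell, and 0 rose. The puc call was lost without replicate 3 (adjusted p = 0.21). Of 12 heat shock and chaperone genes, Hsp22 (1.91 ± 0.43), Hsp68 (2.04 ± 0.57), Hsp26 (1.58 ± 0.46) and Hsc70-3 (0.94 ± 0.27) rose and Hsp27 (-0.78 ± 0.24) fell, beside 6.83% of all genes higher and 8.77% lower. The reference signal of Hsp68 was above background on 1 array only. Replicate 1 was the lowest for Hsp22 (0.57, 2.36 and 2.51) and Hsp68 (0.48, 2.13 and 3.36). The count of 4 higher became 3, 0 and 0 without replicates 1, 2 and 3, and 3 with scan day as a fixed block. Of 17 ecdysone response genes 0 rose and 7 fell, beside 8.77% of all genes lower, led by ImpE2, Hr39, ImpE3 (-1.44 ± 0.42) and ImpL2 (-1.22 ± 0.34). The count of 7 became 4, 4 and 2 without replicates 1, 2 and 3, and 0 with scan day as a fixed block, under which 1 was higher. Of the 17 genes, 0 passed the test of the difference between roX63 and the mean of the other mutants. The list median of that difference was -0.04.

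**Figure D2:**
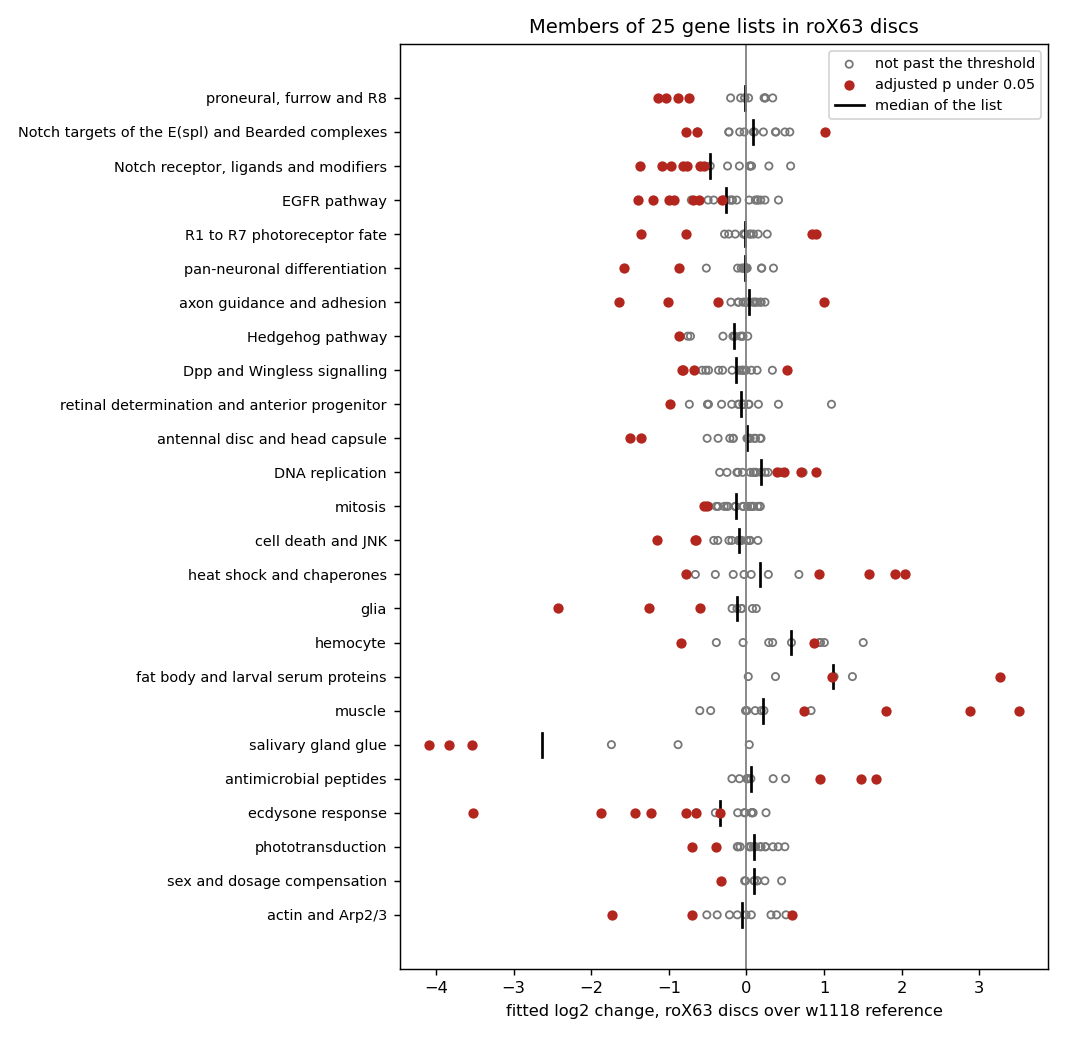
Log2 ratio over the w1118 reference of every measured member of the 25 gene lists in roX63 discs, 1 row per list. Filled points passed the test and open points did not. The Notch receptor, EGFR and ecdysone rows have called members only below 0, and the muscle and DNA replication rows only above 0.

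Some marker genes of other tissues were also called against the reference. The muscle list had 4 of 12 genes higher (Mhc, Mlc2, Act57B and Mlc1) and 0 lower, beside 6.83% of all genes higher. The count of 4 became 2 without replicate 2 and 0 with scan day as a fixed block. Its summed roX63 signal was 1.14, 2.68 and 1.04 times the reference on replicates 1, 2 and 3, against 0.659 to 2.04 times on the 20 arrays of the other mutants. The fat body list had 2 of 6 higher (Fbp2 and Lsp1beta), and its sum was 1.44, 20.9 and 3.99 times the reference, against 0.471 to 20.7 in the others. The calls of both genes were lost without replicate 2 or 3 (for Lsp1beta adjusted p = 0.070 and 0.23) and with scan day as a fixed block (0.49 for Lsp1beta). Both sums were highest on replicate 2, and whether other tissue in the dissected samples set these values was not tested.

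Of 11 antimicrobial peptide genes, DptB, Mtk and DptA were called higher, beside 6.83% of all genes higher and 8.77% lower. DptB read -0.14, 3.85 and 1.25, Mtk read 0.21, 2.73 and 1.40, and DptA read 0.06, 2.22 and 0.62, with replicate 2 the highest each time. The DptA call was lost without replicate 2 (0.34, adjusted p = 0.12). The count of 3 became 2 without replicate 2 and 1 with scan day as a fixed block. On the 20 arrays of the other mutants DptB ranged from -0.28 to 0.56. The summed list was 0.912, 5.14 and 1.95 times the reference on the 3 roX63 arrays, against 0.795 to 8.81 times on the 20 others. The order of the roX63 arrays was that of the fat body sum. Of 11 hemocyte genes vkg rose (0.87 ± 0.24) and Ppn fell (-0.84 ± 0.17), and both calls were lost without replicate 3 (adjusted p = 0.72 and 0.050). The defining hemocyte gene Hml read 0.36, 0.94 and 2.86 and did not pass (adjusted p = 0.054). The median of the hemocyte list was 0.01, 0.14 and 1.47 on replicates 1, 2 and 3, and replicate 3 was also the highest array for Idgf3 and Obp56d. Whether hemocytes had a part in these values was not tested.

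The glue list had 3 of 6 genes lower, beside 8.77% of all genes lower. Its sum was 0.0548, 0.0967 and 0.0832 times the reference. The 20 other arrays ranged from 0.0334 to 5.70 times. Sgs3 was detected in both channels of all 3 roX63 arrays and averaged -1.74. Whether salivary gland tissue in the reference set these values was not tested. In the glia list bnb, nrv2 (-1.26 ± 0.19) and loco (-0.60 ± 0.19) fell, out of 9. Its sum was 0.473, 0.388 and 0.320 times the reference, against 0.284 to 0.968 times on the 20 arrays of the other mutants. The loco call was lost without any 1 array (adjusted p between 0.061 and 0.59). Of 18 phototransduction genes inaC (-0.70 ± 0.18) and Xport-A (-0.39 ± 0.12) fell, and of 9 sex and dosage genes mle (-0.33 ± 0.10) fell, with mle above background on 1 array in each channel. The calls of these 3 genes were lost without replicate 3 (adjusted p = 0.37, 0.25 and 0.49), and those of Xport-A and mle without replicate 2 (0.19 and 0.053), that of inaC without replicate 1 (0.053) and that of Xport-A without replicate 1 (0.079).

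**Figure D3:**
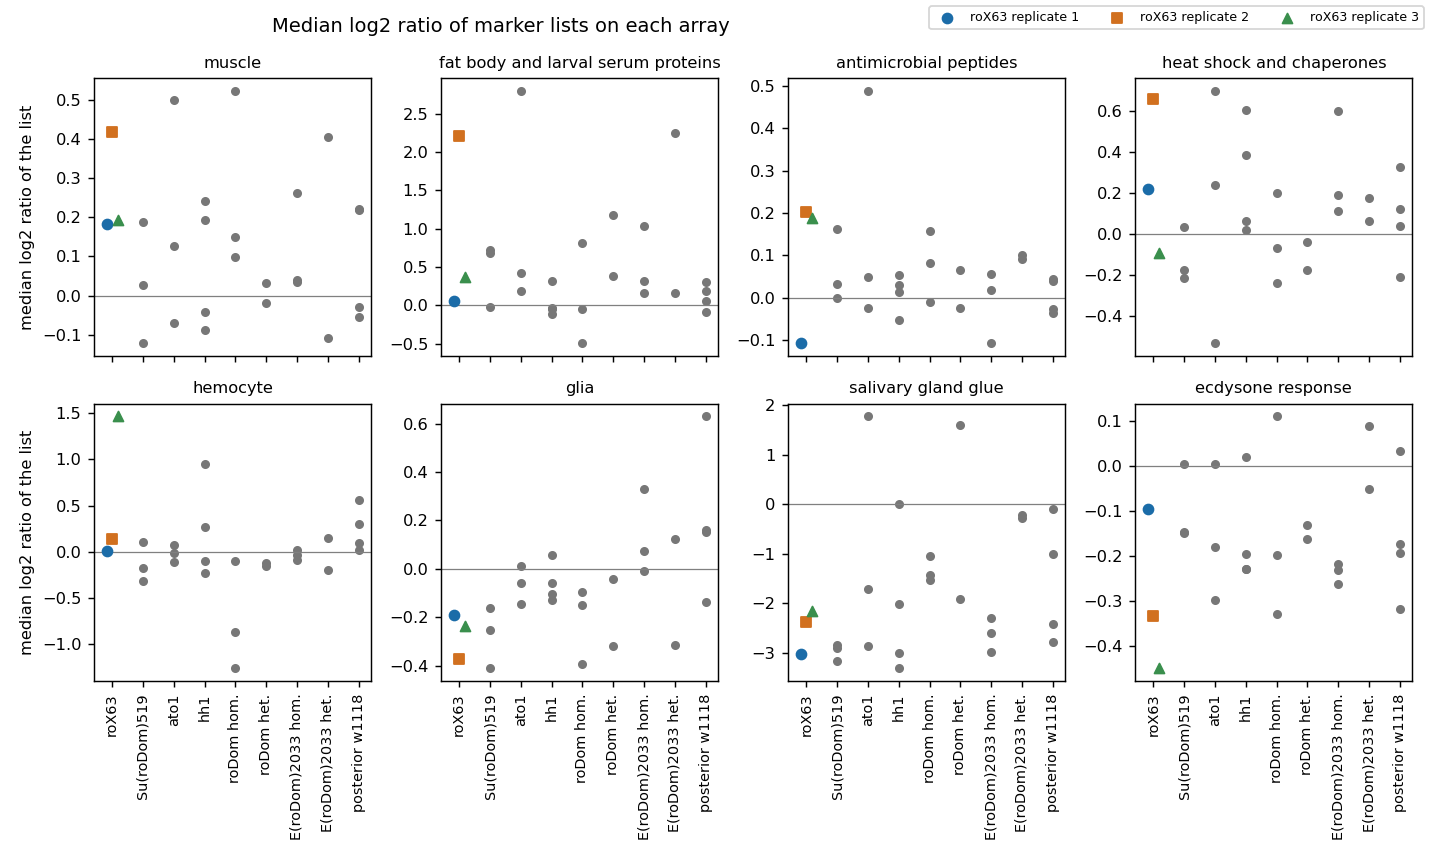
Median log2 ratio over the reference of the marker lists of other tissues on each array, by group. The 3 roX63 arrays are marked by replicate. The roX63 glue medians lie between -3.02 and -2.15, the fat body median is highest on replicate 2 (2.21) and the hemocyte median on replicate 3 (1.47).

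Set against the mean of the 7 other mutant groups, the roX63 discs had more RNA of 3 Notch targets, of ato, stg and dap, and of 3 neuronal genes. Against Su(roDom)519 discs alone, 0 members of the Notch target, proneural and pan-neuronal lists passed. The rest of the 7 groups are of genotypes described as having a stopped furrow. From the mean of the 7 groups, 344 of 11510 genes (2.99%) differed, 1.54% being higher and 1.45% lower (2.66% of probes, 1.36% higher and 1.3% lower). Among the named genes, the largest difference in the higher direction belonged to E(spl)mgamma-HLH. It lay between 0.63 and 1.77 on the roX63 arrays, against a range of -4.78 to 1.02 and a median of -1.38 on the 20 other arrays. The difference was 2.79 ± 0.27 (adjusted p = 2.6e-06). By group, its mean was 1.01 in roX63 discs, 0.74 in Su(roDom)519 discs, -0.67 in heterozygous E(roDom)2033 discs and between -4.42 and -1.03 in the other 5 groups. Against the other mutant arrays scanned on the same day, the difference was 3.34 on the day of replicate 2 and 0.96 on the day of replicates 1 and 3.

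E(spl)mdelta-HLH, a second repressor of the complex, read 0.06, 0.05 and -0.28 in roX63 discs, whereas the other mutant arrays ranged from -3.35 to 0.03. Its difference was 1.45 ± 0.21 (adjusted p = 0.00054). This gene did not pass the test against the reference, and the highest of the other arrays was a Su(roDom)519 array. E(spl)m4-BFM, a Bearded family gene, read 0.48, 0.62 and 0.68 and lay above all 20 other arrays (-3.30 to 0.36; difference 1.94 ± 0.49, adjusted p = 0.036). Its call was lost without any 1 roX63 array (adjusted p between 0.092 and 0.29). E(spl)mbeta-HLH went the other way (-0.60 ± 0.15, adjusted p = 0.035), a call lost without replicate 1 (0.15) or 3 (0.48). In all, 3 of 15 genes of this list were higher and 1 was lower, beside 1.54% of all genes higher and 1.45% lower.

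**Figure D4:**
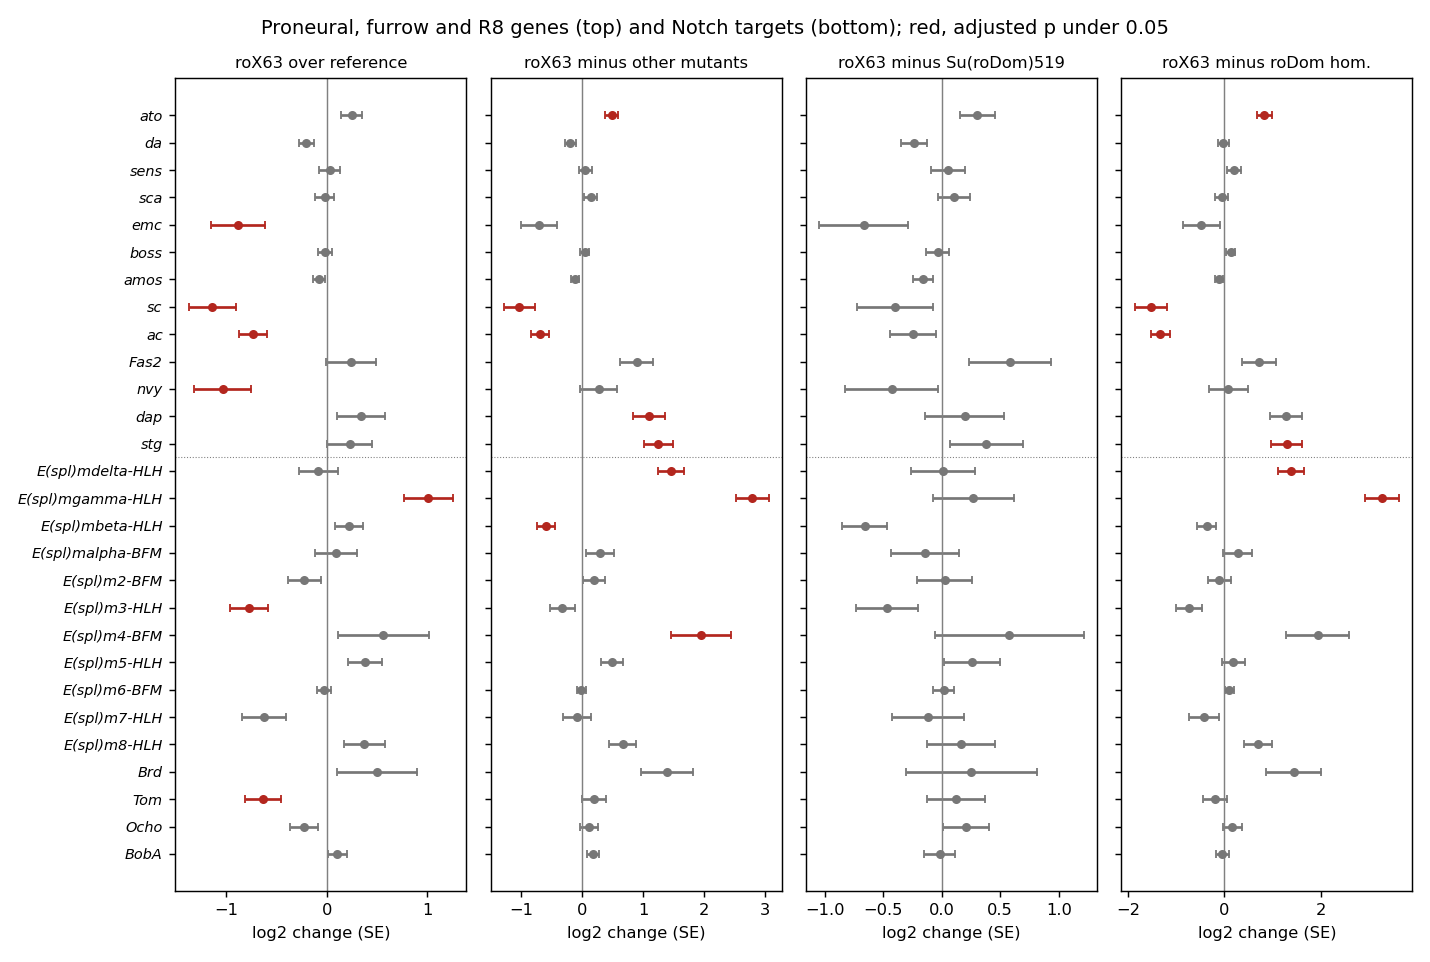
Fitted log2 values of every measured proneural, furrow and R8 gene (above the dotted line) and Notch target gene (below it) in the 4 comparisons, 1 panel each, with bars of 1 SE and called genes in red. E(spl)mgamma-HLH stands highest in the panels against the other mutants and homozygous roDom discs (2.79 and 3.28), and 0 genes are called against Su(roDom)519 discs.

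In the proneural, furrow and R8 list 3 of 13 genes were higher than in the other mutants and 2 were lower, beside 1.54% and 1.45% of all genes. stg, the Cdc25 phosphatase that drives the mitosis of cells around the furrow, read -0.05, 0.00 and 0.46, against -2.0 to -0.02 on the other arrays (difference 1.25 ± 0.24, adjusted p = 0.0062). dap, the cyclin-dependent kinase inhibitor of cells leaving the cycle, read 0.44, 0.24 and 0.20, against -1.68 to 0.36 (1.09 ± 0.26, adjusted p = 0.025). Neither stg nor dap passed the test against the reference, and their medians on the other mutant arrays were -0.95 and -0.81. For both genes the highest of those arrays was a Su(roDom)519 array. ato was the third gene that was higher. sc (-1.03 ± 0.25, adjusted p = 0.03) and ac (-0.69 ± 0.15, adjusted p = 0.015) were lower. The calls of stg, dap, sc and ac were lost without replicate 3 (adjusted p = 0.063, 0.081, 0.49 and 0.33), that of dap also without replicates 1 (0.13) and 2 (0.079), and that of sc without replicate 1 (0.10).

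Of 17 pan-neuronal genes 3 were higher in roX63 discs than in the other mutants and 0 lower, beside 1.54% and 1.45% of all genes. The cell adhesion gene Nrt read -0.22, -0.41 and -0.92, against -3.76 to -0.41 on the other arrays (difference 1.33 ± 0.26, adjusted p = 0.0075). The zinc finger gene scrt and the sodium pump subunit gene nrv3 were higher by 1.20 ± 0.27 (adjusted p = 0.019) and 0.94 ± 0.22 (adjusted p = 0.022). The calls were lost without replicate 1 for Nrt (adjusted p = 0.075) and without replicates 2 or 3 for scrt (0.12 and 0.11) and nrv3 (0.09 and 0.21). None of these 3 genes passed the test against the reference. Their medians on the other mutant arrays were -1.76 for Nrt, -0.97 for scrt and -0.56 for nrv3. Among R1 to R7 genes, run (1.31 ± 0.21, adjusted p = 0.0013) and lz (1.07 ± 0.26, adjusted p = 0.031) were higher. The lz call was lost without any 1 array (adjusted p between 0.078 and 0.15). lbm was higher by 1.71 ± 0.26 (adjusted p = 0.00081), and the integrin gene if by 1.40 ± 0.31 (adjusted p = 0.016). eya, a retinal determination gene, was higher by 1.23 ± 0.29 (adjusted p = 0.025). The calls of if and eya were lost without any 1 array (0.055 to 0.15), and those of run and lbm were kept. The highest other mutant arrays for run (0.82) and lbm (1.05) were Su(roDom)519 arrays. Neither gene passed the test of the difference from Su(roDom)519 discs.

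A separate set of genes lay at levels seen in no or few other mutant arrays. All 3 roX63 arrays lay beyond all 20 arrays of the other mutants for 75 of 11508 genes (0.652%), 36 above and 39 below. Cyp6t3 was one, with 2.14 to 3.52 in roX63 discs, against -0.13 to 0.38 elsewhere (difference 2.70 ± 0.15, adjusted p = 9.2e-10). Npc2a was another, with 1.40 to 2.31, against -1.66 to 0.66 (2.46 ± 0.28, adjusted p = 2.3e-05). Below all others lay Cyp9c1, a second cytochrome P450, at -1.85 to -1.37, against -0.41 to 1.15 (-2.13 ± 0.18, adjusted p = 5.7e-07). The serpin gene Spn47C was also below all others (-1.17 ± 0.14, adjusted p = 7.4e-05), although its roX63 signal was above background on 1 array only, and the small heat shock gene Hsp67Bc above them (1.35 ± 0.25, adjusted p = 0.0048). These calls held without each roX63 replicate.

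**Figure D5:**
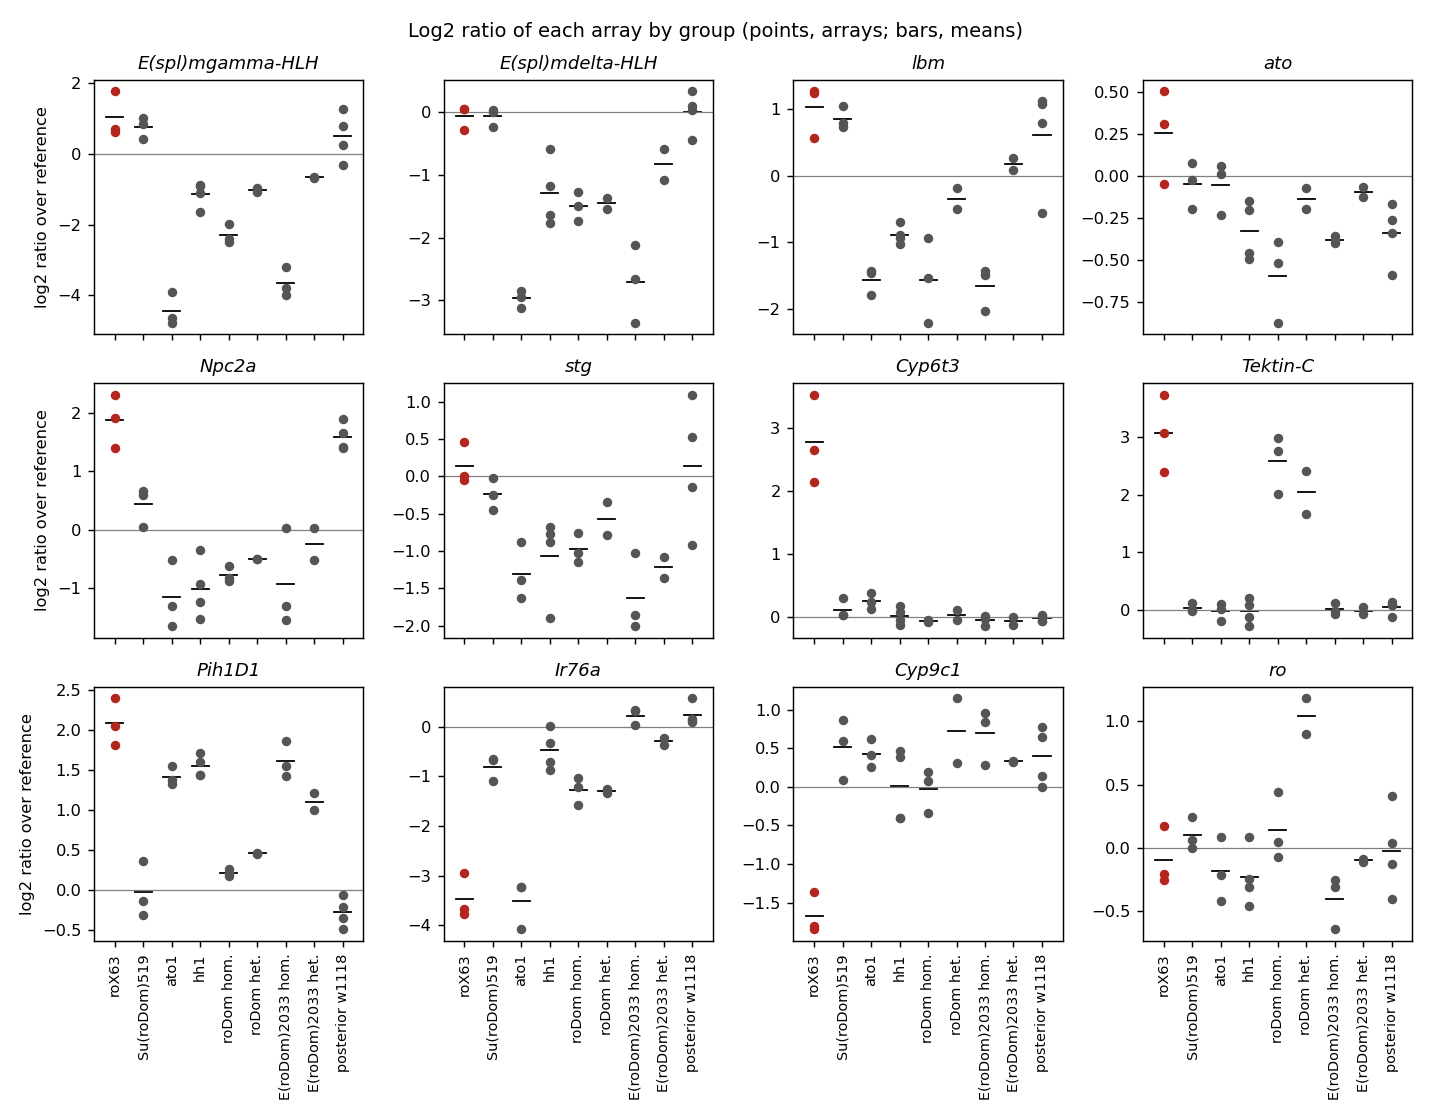
Log2 ratio over the w1118 reference on each array, by genotype, for genes discussed in the text. Points are arrays and bars are group means. Cyp6t3 is high in roX63 discs alone among the mutants, Tektin-C is high in roX63 and in both roDom groups, and Ir76a is low in roX63 and ato1 discs.

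Other large differences were shared with 1 or 2 genotypes. Tektin-C averaged 3.03 in roX63 discs, 2.63 in homozygous roDom and 2.04 in heterozygous roDom discs, and between -0.03 and 0.03 in the remaining 5 mutant groups (difference from the mean of the 7 groups 2.36 ± 0.18, adjusted p = 9.2e-08). Ir76a averaged -3.52 in roX63 and -3.46 in ato1 discs, against -1.30 to 0.17 in the other groups (-2.47 ± 0.16, adjusted p = 1.5e-08). GstD9, a glutathione transferase gene, read -1.84, -1.18 and -1.12, overlapping the range of -1.49 to 2.49 on the other arrays (-1.55 ± 0.25, adjusted p = 0.0014). Spn43Aa (-2.05 ± 0.38, adjusted p = 0.0044), Eip63E (-1.17 ± 0.25, adjusted p = 0.013) and Hsp22 (1.90 ± 0.46, adjusted p = 0.03) completed the named genes. The calls of these 3 were lost without replicate 3 (adjusted p = 0.072, 0.14 and 0.28), and those of Eip63E and Hsp22 without replicate 2 (0.052 and 0.15). With scan day as a fixed block, 26 of the 35 named calls against the other mutants were kept. Those lost were Eip63E (-0.72, adjusted p = 0.33), sc (0.25), ac (0.11), rpr (0.098), scrt (0.063), Hsp22 (0.056), E(spl)mbeta-HLH (0.054), ato and lz (0.052 each).

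Against the mean of the other mutants, further list members passed the test. Hsc70-3 (1.16 ± 0.29, adjusted p = 0.036), Mtk (1.40 ± 0.28, adjusted p = 0.0082), Dad (0.71 ± 0.15, adjusted p = 0.011) and Xport-A (0.74 ± 0.13, adjusted p = 0.0039) were higher. Hsp23 (-1.17 ± 0.25, adjusted p = 0.013), the cell death gene rpr (-0.59 ± 0.14, adjusted p = 0.028) and chic (-1.02 ± 0.26, adjusted p = 0.037) were lower. The Xport-A call was kept without each array. The calls of Hsc70-3 and chic were lost without any 1 array (adjusted p between 0.061 and 0.39), those of Hsp23 and rpr without replicate 1 or 3 (0.10 to 0.28), that of Mtk without replicate 2 or 3 (0.052 and 0.059) and that of Dad without replicate 1 or 2 (0.079 and 0.065). No muscle, fat body, glue, hemocyte or glia gene of the lists was called in this comparison; their medians were 0.30, 0.27, -1.21, 0.74 and -0.09, beside -0.0076 over all genes.

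Su(roDom)519 discs are the other genotype described as forming extra R8 cells, and their 3 arrays were scanned on the same 2 days as the roX63 arrays. Only 79 of 11510 genes (0.686%) differed between the genotypes, 40 higher in roX63 (0.348%) and 39 lower (0.339%). Over all probes the share was 0.625%, with 0.309% higher and 0.315% lower. Of the 25 gene lists, 1 held a called member in this fit, the chromatin assembly gene Caf1-180 of the DNA replication list (-0.60 ± 0.13, adjusted p = 0.028). This call was lost without roX63 replicate 1 (0.14) or 3 (0.19) and without any 1 Su(roDom)519 array (0.076 to 0.19). With scan day as a random block 3 list members were called, and with it as a fixed block 7, 3 higher and 4 lower, 1 in each of 7 lists; 1 was in the EGFR list under both blocks, and 1 in the Dpp and Wingless list under the fixed block. For E(spl)mgamma-HLH the difference was 0.27 ± 0.35, for E(spl)mdelta-HLH it was 0.01, and for ato it was 0.30 ± 0.15 (adjusted p = 0.81).

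The named genes that differed from Su(roDom)519 discs lay outside the patterning lists. Tektin-C read 3.74, 3.08 and 2.40 in roX63 discs, against -0.01, 0.11 and -0.03 in Su(roDom)519 discs (difference 3.05 ± 0.24, adjusted p = 1.4e-07). Cyp6t3 read 0.30, 0.03 and 0.03 in Su(roDom)519 discs, below all 3 roX63 arrays (2.65 ± 0.19, adjusted p = 9.8e-08). Pih1D1 differed by 2.12 ± 0.17 (adjusted p = 1.4e-07). Within the 2 scan days the differences were 3.09 and 2.96 for Tektin-C, 2.66 and 2.61 for Cyp6t3, and 2.08 and 2.19 for Pih1D1, so each was about as large within each day as over both.

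Sbf, a gene of the myotubularin family, read 1.02, 0.42 and 1.67 in roX63 discs, against -1.18, -1.59 and -1.85 in Su(roDom)519 discs (2.58 ± 0.30, adjusted p = 4.5e-05). It was also low in hh1 discs, at -1.62 ± 0.19. Vajk2 and Vajk3, of one gene family, differed by 2.69 ± 0.56 (adjusted p = 0.022) and 1.51 ± 0.28 (adjusted p = 0.0083). Their calls were lost without roX63 replicate 3 (adjusted p = 0.16 and 0.051) or Su(roDom)519 replicate 1 or 3 (0.051 to 0.12), and that of Vajk2 also without replicate 2 of roX63 (0.13) or of Su(roDom)519 (0.086). Vajk2 averaged 2.54 in roX63 and -0.15 in Su(roDom)519 discs, while ato1, hh1 and homozygous E(roDom)2033 discs were higher still at 3.90 to 4.20.

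Lower in roX63 than in Su(roDom)519 discs were Ir76a (-2.66 ± 0.21, adjusted p = 1.8e-07), Cyp9c1 (-2.19 ± 0.24, adjusted p = 2e-05) and GstD9 (-1.87 ± 0.33, adjusted p = 0.0048). p24-1, a cargo receptor gene of the early secretory pathway, read -1.38, -1.35 and -1.37 in roX63 discs, against 0.33, 0.30 and 0.88 in Su(roDom)519 discs (-1.87 ± 0.26, adjusted p = 0.00043). Scsalpha1, a succinyl-CoA synthetase gene, differed by -1.57 ± 0.29 (adjusted p = 0.0083; 0.068 without Su(roDom)519 replicate 2). Each of these 5 had the same sign within both scan days, for example -2.84 and -2.30 for Ir76a. l(1)G0289 differed by -1.55 ± 0.32 (adjusted p = 0.021), a call lost without replicate 1 (0.14) or 3 (0.080) of roX63 or replicate 1 (0.083) or 3 (0.16) of Su(roDom)519.

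Homozygous roDom discs carry the dominant allele of the same gene, and 195 of 11510 genes (1.69%) differed from them, 0.964% being higher in roX63 and 0.73% lower (1.5% of probes, 0.831% higher and 0.673% lower). The proneural gene ato and 2 of 15 Notch targets were higher in roX63 discs. ato read 0.50, 0.31 and -0.05 in roX63 discs, against -0.52, -0.87 and -0.39 in roDom discs, and the groups did not overlap (difference 0.83 ± 0.15, adjusted p = 0.0055). E(spl)mgamma-HLH differed by 3.28 ± 0.35 (adjusted p = 2.1e-05), with -2.49, -2.41 and -1.98 on the roDom arrays. E(spl)mdelta-HLH differed by 1.39 ± 0.28 (adjusted p = 0.014; 0.11 without roDom replicate 1). stg was higher by 1.29 ± 0.32 (adjusted p = 0.044), a call lost without any 1 roX63 or roDom array (adjusted p between 0.073 and 0.14). Of the 3 roDom arrays 2 came from an earlier print series and were scanned on other days, so that only 1 scan day holds both genotypes. With scan day as a fixed block, 9 of the 25 named calls against roDom discs were kept, those of lbm, E(spl)mdelta-HLH, Cyp6t3, E(spl)mgamma-HLH, Npc2a, Pih1D1, Spn43Aa, Ir76a and Cyp9c1. The calls lost included ato (0.64, adjusted p = 0.43), ac (-0.74, 0.50), sc (-0.88, 0.67), run (1.47, 0.30) and Dfd (adjusted p = 0.80). For 1 of the 2 roDom arrays of the earlier print series, the dye order in the file header goes against its label.

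The bristle genes sc (-1.53 ± 0.33, adjusted p = 0.023) and ac (-1.33 ± 0.20, adjusted p = 0.0014) were lower in roX63 than in roDom discs, the sc call being lost without roX63 replicate 1 (0.060) or 3 (0.14) or roDom replicate 1 (0.19) or 2 (0.13). In all, 2 of 13 proneural genes were higher and 2 lower, and 2 of 15 Notch targets were higher and 0 lower. Over all genes the shares were 0.964% higher and 0.73% lower. Among the neuronal and photoreceptor genes, run (1.76 ± 0.28, adjusted p = 0.0019), Nrt (1.43 ± 0.35, adjusted p = 0.043), lbm (2.54 ± 0.34, adjusted p = 0.00058) and if (1.74 ± 0.41, adjusted p = 0.035) were higher. lbm read 1.25, 1.27 and 0.57, against -1.54, -2.21 and -0.94 in roDom discs. The calls of Nrt and if were lost without any 1 roX63 array (adjusted p between 0.050 and 0.14), and without roDom replicate 2 or 3 (0.054 to 0.16), that of Nrt also without roDom replicate 1 (0.19). fng, the Notch glycosyltransferase, was lower (-0.92 ± 0.22, adjusted p = 0.036). Its call was lost without any 1 roX63 array (0.062 to 0.11) and without roDom replicate 1 (0.28) or 2 (0.10).

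Of 16 antennal and head genes 3 were lower in roX63 than in roDom discs and 0 higher, and of 16 retinal determination genes 1 was lower and 0 higher. Beside these counts, 0.73% of all genes were lower and 0.964% higher. Dfd (-1.96 ± 0.34, adjusted p = 0.0044), lab (-1.55 ± 0.37, adjusted p = 0.04) and al (-1.50 ± 0.35, adjusted p = 0.034) of the antennal and head list and opa (-1.45 ± 0.35, adjusted p = 0.042) of the retinal and progenitor list passed. Only Dfd kept its call without each roX63 array, and the other 3 gave adjusted p between 0.065 and 0.12. All 4 calls were lost without roDom replicate 1 (0.055 to 0.35), and those of lab, al and opa without roDom replicate 2 (0.17 to 0.19). Xport-A was higher (0.73 ± 0.18, adjusted p = 0.043), and its call was lost without any 1 roX63 array (0.078 to 0.13) or roDom replicate 1 (0.064) or 2 (0.21).

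Outside the lists, Cyp6t3 (2.78 ± 0.20, adjusted p = 1e-07), Npc2a (2.62 ± 0.36, adjusted p = 0.00061) and Pih1D1 (1.89 ± 0.17, adjusted p = 1.9e-06) were higher than in roDom discs. Tektin-C was high in both genotypes, and its difference of 0.40 did not pass (adjusted p = 0.51). Sr-CI, a scavenger receptor of hemocytes, had a difference of 1.94 ± 0.49 at the edge of the threshold. It read -0.07, 0.28 and 2.76 on the roX63 arrays, and without roX63 replicate 3 the difference was 1.04 (adjusted p = 0.30). The call was also lost without roX63 replicate 2 (0.059) and without roDom replicate 1 (0.15) or 2 (0.23). Its high array was the one on which Hml was highest. Lower were Spn43Aa (-2.84 ± 0.50, adjusted p = 0.0049), Ir76a (-2.29 ± 0.22, adjusted p = 4.3e-06), bnb (-2.20 ± 0.39, adjusted p = 0.0053), Oatp74D (-2.15 ± 0.42, adjusted p = 0.01) and Cyp9c1 (-1.77 ± 0.24, adjusted p = 0.00061). These 5 calls and those of Cyp6t3, Npc2a and Pih1D1 held without each roX63 array. With scan day as a fixed block the differences of bnb (-1.05, adjusted p = 0.40) and Oatp74D (-1.14, adjusted p = 0.68) did not pass. Without roDom replicate 1 the calls of bnb (0.083) and Oatp74D (0.13) were lost, and that of Oatp74D also without roDom replicate 2 (0.078).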

How the data were processed

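Each of the 27 files holds 1 scan of a custom glass array of PCR products with 17664 spots, per the file headers. The deposited foreground and background values are scanner intensities of the Cy5 and Cy3 channels, each spot carries a deposited quality score, and a deposited percent of saturated pixels was used as a check. The authors also deposited a table of log2 ratios, reference over test, used as an alternative after turning its sign; in it the column of 1 hh1 array repeats that of 1 Su(roDom)519 array with the sign turned and was left out. How probes were matched to genes is not given in the sources used here.

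Intensities were background-corrected (limma 3.58.1 in R 4.3.3, normexp with offset 50) and loess-normalised within each array, control spots having weight 0 and spots with a score of -75 or lower left out. Ratios were turned to test over reference by the labelled dye and averaged per probe. One fit of all 27 arrays had 9 group means and 1 dye term, with two-sided moderated tests (lmFit, eBayes) and Benjamini-Hochberg adjustment over 16492 probes measured on at least 2 arrays of each group needed. The fit was tested on simulated data with known changes. A signal counted as detected above the local background plus 2 of its SDs. The number of arrays limits the precision.

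Probes were named through RefSeq's gene table by locus tag (12714), synonym (2753) or symbol (34), and 1381 of 16882 stayed unnamed. A gene is its brightest probe. Named genes were ro, ato, hh, the 15 highest and 15 lowest called genes with the same sign on all 3 roX63 arrays, the 6 highest and 6 lowest of each difference, and called members of the lists (the 4 with the largest change where more than 5 were called, any member of the proneural and Notch target lists). The members and lists were chosen with earlier results of these data known. List members not matched were h, E(spl)m1, Dl, nct, Krn, CDC45L, Mad2, repo, He, CecC and Eip71CD. Alternatives were the dye term, background, normalization, filters, scan day, print series, groups in the fit, the deposited table, a fold limit and each array left out. Counts of list members without each roX63 array and with scan-day blocks were added after seeing the data. Replicate numbers follow the order of deposition and pair nothing.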

Additional observations from a re-analysis of the deposited data

Results flagged for a closer look

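Some genes named against the reference also differed, by a test of the difference itself, between roX63 discs and 1 of the 2 genotypes set directly beside them. Each value is a difference of log2 ratios.

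Against Su(roDom)519 discs, the difference was 3.05 for Tektin-C, 2.65 for Cyp6t3, 2.69 for Vajk2 and 2.12 for Pih1D1, all higher in roX63 discs, and -2.66 for Ir76a, lower in roX63 discs. Tektin-C, Cyp6t3, Vajk2 and Pih1D1 averaged between -0.15 and 0.10 in Su(roDom)519 discs, near the reference. Ir76a averaged -0.86 there.

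Against homozygous roDom discs, the difference was 0.83 for ato, 2.78 for Cyp6t3, 1.89 for Pih1D1 and 2.62 for Npc2a, higher in roX63 discs. It was -2.29 for Ir76a, -2.20 for bnb, -2.84 for Spn43Aa, -1.34 for Eip63E (adjusted p = 0.044) and -2.15 for Oatp74D, lower in roX63 discs. With scan day as a fixed block the differences of ato (0.64), bnb (-1.05) and Oatp74D (-1.14) from roDom discs did not pass. Eip63E was not among the genes followed under this setting in the comparison with roDom discs. ato was the only one of these 9 whose change against the reference did not pass the test in roX63 discs.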

How the results depend on the processing

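Against the reference, the 2232 called probes became 1400 with scan day as a random block, 341 as a fixed block (166 of them shared), 3733 with only the groups compared in the fit, 354 with an absolute log2 change of at least 1, and 695 to 1610 without 1 roX63 array, the fewest without replicate 3. For roX63 minus the other mutants, the 438 probes became 412 with the fixed day block (153 of them shared), 290 with no dye term, 103 with the fold limit and 122 to 349 without 1 array. For roX63 minus Su(roDom)519, the 103 probes became 179 with the random and 234 with the fixed day block, 48 with only the groups compared, 60 with the fold limit and 60 to 94 without 1 array. For roX63 minus homozygous roDom, the 248 probes became 165 with no dye term, 43 with the fixed day block, 43 with arrays of the 7th print series only, 46 with only the groups compared, 113 with the fold limit and 55 to 588 without 1 array (55 without roDom replicate 1, 588 without roDom replicate 3). With the deposited table, the share of higher calls was 38.1% in place of 51.1% against the other mutants, 29.9% in place of 49.5% against Su(roDom)519 and 66.3% in place of 55.2% against roDom. The ro value ran from -0.23 without replicate 1 to 0.00577 without replicate 3. Idgf3 (-0.36), fng (0.026), Nedd4 (0.18), Su(dx) (0.029), Raf (0.16) and Cdk1 (0.10) changed sign with the fixed day block. Over the named genes, 2114 of the alternative values kept direction and side of the threshold and 520 kept direction but passed it no longer. The causes were not tested beyond the fewer arrays or genes that some settings leave. Dim probes, detected on some arrays only, limit low genes such as boss and PGRP-LC. No paired analysis was possible because the replicate numbers only follow the order of deposition.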

Other observations

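The genes around ro and the chromosome arms were also counted. Of the 20 measured genes on each side of ro on chromosome arm 3R, 6 of 40 were called against the reference (15%, beside 15.6% of all genes). They were Tl, the Toll receptor gene (-1.27 ± 0.24), CG46339 (-0.99 ± 0.20), amon (-0.52 ± 0.16), TwdlT (0.79 ± 0.25), Yif1 (0.69 ± 0.16) and ball (0.57 ± 0.19), named after their values were seen. Against the mean of the other mutants 1 of 40 was called (2.5%, beside 2.99% of all genes), against Su(roDom)519 discs 0 and against homozygous roDom discs 3 (7.5%, beside 1.69%).

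By chromosome, the share of genes called against the reference ran from 13.2% on X to 16.8% on 2R among the large arms. On the small chromosome 4 it was 25.7% (18 of 70 genes), and all 18 were lower, whereas X had 140 higher and 116 lower. In the comparison with the 7 other mutant groups, 3 of 70 genes of chromosome 4 were called (4.29%), 1 above and 2 below them.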
